A study of Mus musculus with 8 samples.

Results

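Many genes make, beside messenger RNA for a full protein, a transcript that carries a premature stop codon and is annotated as a substrate of nonsense-mediated decay. The transcripts described here are those with the biotype nonsense_mediated_decay in the deposited tables and a mean level of 1 TPM or more over all 8 libraries. TPM, the unit of the deposited levels, divides a transcript's reads by its length and gives every library an equal total. Of 133618 transcripts, 6588 carried that biotype and 2872 of these (43.6%) reached 1 TPM. The 12 that belong to 8 of the genes Srsf1 to Srsf11 were left out, which gave 2860 transcripts in 2070 genes, or 14.2% of the 14561 genes with any transcript at 1 TPM. For comparison, 39.6% of annotated protein-coding and 49.8% of annotated retained-intron transcripts reached 1 TPM. The members were chosen by their mean level over all 8 libraries, without regard to group, so that mean is a description and not a finding. Just inside the threshold lay transcripts of Sfi1, RP23-200C3.1 and AC129188.1 at 1.00 TPM each, and just outside lay transcripts of Fanci, Trappc6a and Tsta3, each between 0.998 and 1.00 TPM.

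The cells were mouse (C57BL/6) intraepithelial lymphocytes, the lymphocytes that sit within the gut lining, sorted on the leukocyte protein CD45 and kept for 24 h at 37 C in RPMI medium with 10% serum. Osteopontin, a secreted protein that binds integrins and CD44, was present at 2 µg/ml for 4 libraries and absent for the 4 null libraries, and each group's libraries carry the names 1, 2, A and B. The comparison asks how the transcripts differ with osteopontin. Whether the libraries stem from different mice or cultures is not in the labels, so every p-value rests on the spread among these 8 libraries, which may be technical. Depth ranged from 49108969 estimated reads (osteopontin library B) to 71399847 (null library A). The labelled cell type was checked on 8 T lymphocyte markers, which were present in all libraries with a summed level of 3740 to 4271 TPM. Fibroblast markers, in contrast, summed to 130 TPM in null library 1 and 88.2 in null library A, against 2.08 to 8.19 in the other 6 libraries. B and plasma cell markers summed to 1240, 1562, 1740 and 830 TPM with osteopontin and 1309, 1506, 1914 and 1147 TPM without (libraries 1, 2, A and B). Library A was thus highest and library B lowest in both groups. Osteopontin library B stood apart from the other osteopontin libraries. The immediate early gene Fos was at 14.8 TPM there, against 0.114 to 0.317 TPM in the other 3 osteopontin libraries and 11.5 to 24.8 TPM in the null libraries, and the 10 listed inducible stress genes summed to 356 TPM, against 202 to 231 and 282 to 321 TPM. Enterocyte markers summed to 94.5 TPM in osteopontin library B and 78.9 in null library B, against 32.3 to 40.1 TPM in the other 6. Without osteopontin library B, as with it, 0 of the transcripts described here passed the test of level (edgeR) or of share (limma).

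Nonsense-mediated decay is the surveillance pathway by which cells degrade RNA whose reading frame ends too early. During splicing a protein complex, the exon junction complex, is left just upstream of every junction, and a ribosome that stops well before the last of these complexes allows the helicase Upf1 and its partners to mark the RNA for decay. Many splicing regulators use this route to limit their own level by switching in a so-called poison exon or skipping a coding exon. A transcript of this class seen at steady state may thus be what remains after decay. Whether the transcripts described here are degraded was not measured.

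The sequences of the transcripts on which the results turn show how the reading frame ends. Each line gives, 5′ to 3′, the last shared coding bases (30, fewer near the start codon) and then the transcript's own coding bases up to its stop codon, which is in capitals. Sequences and coordinates come from GENCODE M21 on GRCm38, in which 2827 of the 2860 transcripts had the same versioned identifier and length, and windows that cross an intron give the outer ends. In the first set an exon absent from the coding transcript is spliced in and brings the stop codon. These are Tra2a-202 (chr6:49252965-49263867, minus strand), Rbm39-225 (chr2:156178881-156179206, minus), Tial1-204 (chr7:128447071-128448150, minus), Il4ra-205 (chr7:125571561-125571953, plus), with its coding counterpart over the same length, and Selenok-203 of the gene listed as Selk (chr14:29970087-29970812, plus).
Tra2a-202: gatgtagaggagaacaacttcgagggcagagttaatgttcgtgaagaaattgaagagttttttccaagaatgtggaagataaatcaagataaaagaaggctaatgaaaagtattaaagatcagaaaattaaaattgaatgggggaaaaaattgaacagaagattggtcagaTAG
Rbm39-225: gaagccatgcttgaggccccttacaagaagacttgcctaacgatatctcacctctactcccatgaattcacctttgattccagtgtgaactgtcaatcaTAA
Tial1-204: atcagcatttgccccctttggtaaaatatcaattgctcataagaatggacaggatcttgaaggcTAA
Il4ra-205: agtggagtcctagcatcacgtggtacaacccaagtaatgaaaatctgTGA
Il4ra-201 (coding): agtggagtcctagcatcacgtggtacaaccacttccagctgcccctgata
Selenok-203: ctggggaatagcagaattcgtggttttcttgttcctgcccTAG

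In the second set an exon of the coding transcript is skipped and the frame runs into an early stop codon. These are Clk1-210 (chr1:58419713-58421112, minus strand), Slc25a12-207 (chr2:71324061-71343919, minus) and Ctsh-202 (chr9:90060481-90062725, plus), the last with its coding counterpart.
Clk1-210: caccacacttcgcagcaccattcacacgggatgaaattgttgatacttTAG
Slc25a12-207: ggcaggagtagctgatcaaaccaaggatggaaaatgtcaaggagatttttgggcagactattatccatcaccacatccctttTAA
Ctsh-202: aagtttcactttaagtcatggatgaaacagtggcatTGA
Ctsh-201 (coding): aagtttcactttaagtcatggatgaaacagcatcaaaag

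In the third set a splice site is moved or an intron is kept. Rpl12-201 (chr2:32961810-32962596, plus strand) and Tmem234-210 (chr4:129601105-129601179, plus) use another 5′ splice site, Rpsa-206 (chr9:120129247-120130194, plus), Hnrnpu-206 (chr1:178325281-178329897, minus) and Klre1-202 (chr6:129580088-129581875, plus) use another 3′ splice site, and Ddx5-208 (chr11:106783954-106783988, minus) keeps an intron. The coding counterparts of Klre1-202 and Ddx5-208 are shown for comparison.
Rpl12-201: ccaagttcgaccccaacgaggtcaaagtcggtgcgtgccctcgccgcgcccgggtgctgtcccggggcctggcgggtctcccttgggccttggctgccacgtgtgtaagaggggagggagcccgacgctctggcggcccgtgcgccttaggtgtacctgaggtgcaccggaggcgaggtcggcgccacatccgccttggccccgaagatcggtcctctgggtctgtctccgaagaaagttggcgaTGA
Rpsa-206: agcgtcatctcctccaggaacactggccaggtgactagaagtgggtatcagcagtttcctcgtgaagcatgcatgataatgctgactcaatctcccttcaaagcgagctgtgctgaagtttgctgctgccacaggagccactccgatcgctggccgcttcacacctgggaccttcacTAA
Hnrnpu-206: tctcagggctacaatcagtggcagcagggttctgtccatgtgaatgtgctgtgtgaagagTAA
Klre1-202: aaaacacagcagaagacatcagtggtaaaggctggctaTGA
Klre1-201 (coding): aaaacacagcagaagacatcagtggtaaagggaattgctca
Tmem234-210: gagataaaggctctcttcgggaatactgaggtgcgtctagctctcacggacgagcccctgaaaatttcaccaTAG
Ddx5-208: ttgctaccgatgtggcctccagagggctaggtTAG
Ddx5-201 (coding): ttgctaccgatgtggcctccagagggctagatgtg

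These examples follow the structure of the whole set. Of 2816 transcripts with an annotated stop codon, 2802 (99.5%) had it more than 50 bases upstream of the last exon junction, against 13 of 3571 (0.364%) protein-coding transcripts of the same genes, a contrast that the biotype's own definition fixes. The median distance from the stop codon to the last junction was 340 bases (quartiles 168 and 731), with 1 junction after the stop in 635 transcripts, 2 in 580 and 3 or more in 1598. The transcripts were shorter than the coding ones, with a median of 1202 against 2679 bases and of 7 against 11 exons. Their coding part covered a median of 28.4% of the coding length of the reference transcript of the gene (1813 pairs), and the frame ended a median of 45 bases (quartiles 17 and 92) after it left that of the reference. TGA was the stop codon in 56.1% of the transcripts with an annotated start codon and in 51.5% of the coding ones.

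The way in which the frame was left could be classed for 1817 transcripts that share their start codon with a coding transcript. A skipped exon was the most frequent class with 451 transcripts (24.8%), followed by an extra exon with 353 (19.4%), another 3′ splice site with 337 (18.5%) and another 5′ splice site with 286 (15.7%). A retained intron accounted for 46 (2.53%), several skipped exons for 61, several extra exons for 27 and other differences for 177. In 79 transcripts the stop codon was that of the coding transcript and a junction downstream of it set the class. Extra exons had a median length of 107 bases, 245 of 353 were not a multiple of 3 bases, and 287 (81.3%) held the stop codon themselves. For a further 821 transcripts no start codon was annotated, 92 lay in genes without a complete coding transcript at 1 TPM or more and 86 used another start codon.

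**Figure D1:**
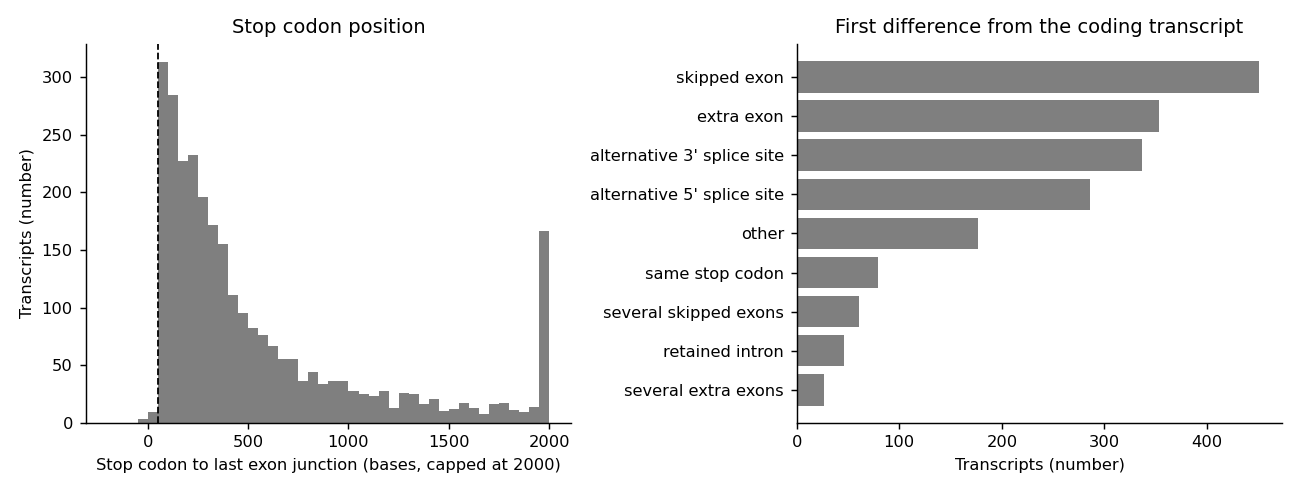
Left, number of transcripts by the distance from the stop codon to the last exon junction in bases (the longest distances are gathered in the last bar, dashed line at 50 bases); right, number of transcripts by the first difference from the coding transcript of the same start codon. The distances begin at the dashed line for all but 14 transcripts, and skipped exons, with 451 transcripts, form the longest bar.

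Most of the transcripts were minor products, and a few dominated their gene. The median level was 3.69 TPM (10th to 90th percentile 1.30 to 18.2), and 763 transcripts lay under 2 TPM, 1536 between 2 and 10, 539 between 10 and 100 and 22 above that. The share of the gene, which is the transcript's TPM over the summed TPM of all transcripts of its gene, had a median of 8.61% (10th to 90th percentile 2.03 to 31.03%). It exceeded 25% for 410 transcripts and 50% for 112, was under 5% for 895, and in 25 cases the transcript was the gene's sole one. In 261 genes with other transcripts the decay-annotated transcript was the most abundant. The 10 most abundant transcripts held 16.6% of the summed level and the first 100 held 39.1%.

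**Figure D2:**
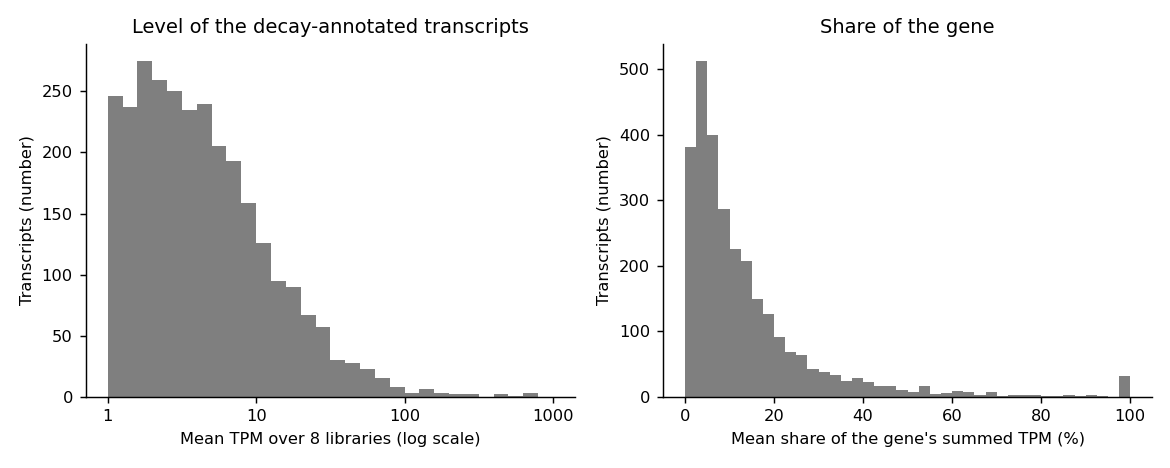
Left, number of the 2860 transcripts by mean TPM over the 8 libraries on a log scale; right, number by mean share of the gene's summed TPM in percent. Levels crowd near the threshold of 1 TPM and shares below 20%, and the bar at 100% includes the 25 sole transcripts.

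Among the 8 gene lists compared, splicing regulators had the highest share of genes with such a transcript. Of 90 listed splicing factor genes at 1 TPM or more, 51 (56.7%) had a member, against 13.6% of all 15256 genes at that level. In the annotation 61.1% of the listed genes and 21.3% of all genes have a transcript of this biotype. The 95 splicing factor transcripts had a median level of 13.0 TPM and a median share of 6.73%, beside 3.69 TPM and 8.61% over all members. Ddx5-208, from the RNA helicase gene Ddx5, was the most abundant with 457, 457, 483 and 470 TPM with osteopontin and 606, 506, 534 and 476 TPM without (libraries 1, 2, A and B throughout). The groups overlapped in level, and null library 1 was the highest. Hnrnpu-206, of a nuclear RNA-binding protein, held 43.3, 43.0, 37.5 and 39.2% of its gene's TPM with osteopontin and 46.0, 47.1, 43.6 and 45.4% without. The osteopontin values lay below the null values, by a narrow margin, and the share test gave an unadjusted p of 0.0517 and an adjusted p of 0.968 (limma). Rbm39-225, of a splicing coactivator, held 14.5 to 19.1%.

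The poison exon of Tra2a, a serine/arginine-rich-like splicing activator, is 306 bases long, and its transcript was the main product of the gene. Tra2a-202 stood at 44.2, 45.9, 40.2 and 31.8 TPM in the osteopontin libraries and 29.0, 39.4, 43.4 and 41.2 in the null libraries (order 1, 2, A, B). It held 71.9, 73.3, 65.0 and 38.6% of the gene with osteopontin and 51.7, 76.7, 67.3 and 71.4% without, so that osteopontin library B and null library 1 were low and the groups overlapped. Its coding counterpart Tra2a-204 had a mean of 6.52 TPM. Clk1-210, of the kinase that phosphorylates serine/arginine-rich splicing factors, lacks a coding exon and held 39.8, 39.4, 43.6 and 43.4% of its gene with osteopontin and 18.8, 28.7, 35.5 and 38.4% without. The Clk1 shares of the groups did not overlap, with null library 1 lowest, but the levels did (195 to 237 TPM against 91.4 to 222), and the share test gave an unadjusted p of 0.0346 and an adjusted p of 0.968 (limma). Ptbp1-201, which skips an exon of the polypyrimidine tract-binding protein gene, held 13.6 to 24.8% with osteopontin and 19.5 to 26.3% without, with overlap.

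Ribosomal protein genes gave abundant transcripts that were mostly a small share of their gene. Of 86 such genes, 17 (19.8%) had a member, with 21 transcripts at a median of 19.0 TPM but a median share of 1.49%. Rpsa-206, which uses a more upstream 3′ splice site in the gene of the laminin-receptor-related ribosomal protein, held 57.6 to 67.3% of the gene in all libraries. Rpl12-201 held 46.7 to 65.1%, while its coding counterpart Rpl12-203 had a mean of 5.10 TPM. Transcripts of ribosomal protein genes and of Ppia, the gene of cyclophilin A, share sequence with processed pseudogenes, so the division of their reads is uncertain. Ppia-201 held 35.8 to 43.7% of its gene. Among 63 translation factor genes 9 had a member, led by Eef1b2-205, of an elongation factor subunit, at 230 to 336 TPM.

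Of 75 listed genes that define the lymphocytes themselves, 7 (9.33%) had such a transcript, beside 13.6% of all genes at 1 TPM. The annotation gives one to 9 of the 75 (12%), beside 21.3% of all genes, and 77.8% of those annotated reached 1 TPM, beside 63.6% over all genes. The highest was Klrd1-206, from the gene of CD94, a lectin-like receptor of killer lymphocytes, at 132 to 235 TPM and 9.50 to 17.2% of the gene. Klre1-202, from another receptor of that family, held 62.0, 54.3, 56.9 and 60.4% of its gene with osteopontin and 51.6, 51.9, 46.7 and 52.5% without. All 4 osteopontin values lay above the null values, although the share test gave an unadjusted p of 0.0657 (limma). The Plcg1 and Il21r members, of a signalling phospholipase and a cytokine receptor, held 7.999 and 14.1% of their genes. Il4ra, the receptor chain for interleukins 4 and 13, was not on the list and was chosen after its values were seen. Its poison-exon transcript Il4ra-205 stood at 33.2 to 46.7 TPM with osteopontin and 38.7 to 46.1 without, which was 61.3 to 73.4% and 68.9 to 73.3% of the gene, and the coding transcript Il4ra-201 had a mean of 11.5 TPM.

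By the estimated TPM, several other genes were represented mainly by a decay-annotated transcript. Mrps14-201, of a mitochondrial ribosomal protein, held 81.1 to 96.4% of its gene and Gbp4-202, of an interferon-induced guanylate-binding protein, held 67.2 to 86.3%. Lars2-209, of the mitochondrial leucyl-tRNA synthetase, held 87.8, 90.7, 87.5 and 89.9% with osteopontin and 78.5, 85.0, 86.8 and 75.6% without. The Lars2 shares did not overlap, with an unadjusted p of 0.0119 and an adjusted p of 0.968 (limma), while the log2 fold change of its level was 0.06 (edgeR). Few stretches of 31 bases were absent from the gene's other transcripts: 52 of 644 in Mrps14-201, 28 of 4479 in Gbp4-202 and 35 of 3726 in Lars2-209. These shares therefore depend on how shared reads were divided. Grip2-204 was the only transcript of its gene at 1 TPM or more and was uneven between libraries: 122, 232, 72.5 and 905 TPM in the osteopontin libraries and 220, 171, 268 and 87.4 in the null libraries. Osteopontin library B stood far above the other 7 for Grip2, a scaffold protein gene.

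The decay machinery was expressed throughout. The 20 listed nonsense-mediated decay factors had gene levels of 7.30 to 138 TPM and the 12 exon junction complex genes 16.0 to 467 TPM. Only Smg5 and Smg6, 2 of the decay factors, had a member, Smg5-202 at 0.223 to 8.05 TPM and Smg6-202 at 0 to 4.81 TPM. The annotation gives a transcript of this biotype to only 4 of the 20. Of the 12 exon junction genes, 3 had 5 members between them, and only these 3 have such a transcript in the annotation. By edgeR's quasi-likelihood test on gene counts, 0 of 20 decay factors and 0 of 12 exon junction genes passed an adjusted p of 0.05, as did 0% of all 18631 genes. For Upf1 the log2 fold change of osteopontin over null was -0.10 (95% interval -0.28 to 0.08) and for Smg1, the kinase that phosphorylates Upf1, 0.23 (0.08 to 0.37), the latter with an unadjusted p of 0.00465. The interval lay within 1.5-fold for 19 of the 20 decay factors and 11 of the 12 exon junction genes.

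The summed level of the 2860 transcripts was similar in the groups except in a single library. It was 25871, 27231, 27251 and 32195 TPM with osteopontin and 26388, 25209, 26474 and 26974 TPM without (order 1, 2, A, B), so the groups overlapped. The means were 28137 ± 2781 and 26261 ± 747 TPM (SD, n = 4 each), a difference of 1876 TPM that was 523 TPM without osteopontin library B. As a share of the TPM of the host genes the members made up 14.9 ± 0.973% and 14.4 ± 0.271%. Osteopontin library B had the fewest reads and also the highest retained-intron sum, 113667 TPM against 89010 to 101972 TPM in the other 7. It held the highest value of 781 members (27.3%), and null library B followed with 538 (18.8%). Each remaining library held 4.79 to 15.2%. Members at 1 TPM or more were fewest in osteopontin library B and null library B, 1889 and 1883, against 2064 to 2278 elsewhere. The part of the depth, enterocyte markers and inducible genes of osteopontin library B in the sum was not tested.

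**Figure D3:**
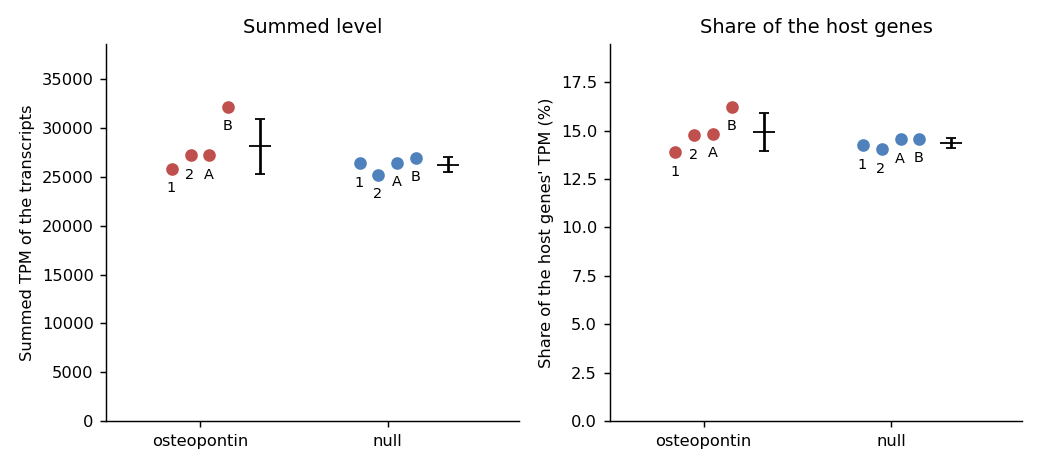
Summed TPM of the 2860 transcripts (left) and their share of the summed TPM of their host genes in percent (right) for each library, named 1, 2, A or B; black marks are group means with SD (n = 4). Osteopontin library B is the highest in both, at 32195 TPM and 16.2%, and the other 7 libraries lie between 25209 and 27251 TPM.

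No decay-annotated transcript passed the test of level between osteopontin and null. Of the 2860, 2569 passed the count filter, and edgeR's quasi-likelihood test called 0 higher and 0 lower at an adjusted p of 0.05, as for 0% of all 50650 tested transcripts in either direction. At an unadjusted p under 0.05, 32 members were fitted higher and 20 lower (2.02% in both directions together). Beside this stood 1.98% of all tested transcripts (0.932% higher and 1.05% lower). The median log2 fold change of the members was 0.04 and that of all transcripts -0.00. The TPM of the groups did not overlap for 41 members higher with osteopontin (1.60%, background 1.98%) and 26 lower (1.01%, background 1.15%). DESeq2 called 6 members higher (Tmem131, Sp100, RP24-200D3.4, Srrt, Cfap20 and Tbk1) and 3 lower (Prmt6 and Ctsh among them), and limma voom called 0. The Tmem131, Srrt, Cfap20 and Tbk1 members reached the mean of 1 TPM only through the osteopontin libraries, and the Prmt6 member only through the null libraries. Of all 50650 tested transcripts DESeq2 called 81 higher and 99 lower.

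Nor did any pass the test of its share of the gene. limma on the log2 odds of the share called 0 of 2815 tested members in either direction, where 0.00254% of all 39307 transcripts were called higher and 0.00254% lower. At an unadjusted p under 0.05 there were 62 members fitted higher and 51 lower (4.01% in both directions together). Beside this stood 4.21% of all transcripts (1.94% higher and 2.27% lower). Shares did not overlap for 34 members higher (1.21%, background 1.41%) and 38 lower (1.35%, background 1.33%). The edgeR splicing test diffSpliceDGE called 1 of 2531 tested members, Tbk1-204, higher. Of all 42243 transcripts in that test it called 5 higher and 4 lower. For the host genes edgeR called 0 of 2069. At an unadjusted p under 0.05, 76 were fitted higher and 37 lower (5.46% in both directions together). Beside this stood 3.93% of all genes (1.85% higher and 2.08% lower). DESeq2 called 1 host gene, RP24-200D3.4, higher and voom 0.

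**Figure D4:**
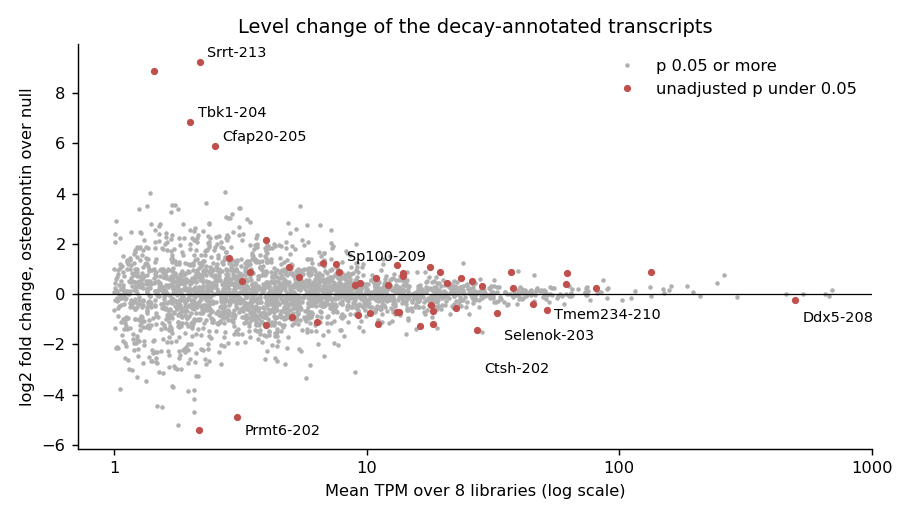
log2 fold change of osteopontin over null (edgeR) against mean TPM on a log scale for the 2569 tested transcripts, with an unadjusted p under 0.05 in red. Fold changes narrow as the level rises, and fitted values of transcripts near 0 in a group, such as Srrt-213, depend on the prior count and are no measure of size.

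Among members with steady counts, the smallest p-values on the lower side belonged to Ctsh, Tmem234 and Selk. Ctsh-202, which skips an exon in the gene of the lysosomal protease cathepsin H, stood at 12.4, 15.7, 17.99 and 14.8 TPM in the osteopontin libraries and 61.2, 24.6, 41.7 and 30.2 in the null libraries. All null values were above all osteopontin values, with null libraries 1 and A highest, the libraries in which the fibroblast markers were also high. Its log2 fold change was -1.41 (SE 0.29, unadjusted p = 0.000951, adjusted p = 1.00, edgeR), DESeq2 gave an adjusted p of 0.00118, and without null libraries 1 and A the fold change was -0.90. The Ctsh gene as a whole had -0.44 (95% interval -1.25 to 0.37), and the part of the other cells was not tested.

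Tmem234-210, of a little-studied membrane protein gene, stood at 49.7, 34.7, 41.5 and 39.4 TPM with osteopontin and 57.8, 49.0, 64.8 and 77.9 without. Only null library 2 reached into the osteopontin range, and as a share of the gene the groups did not overlap (11.2 to 15.1% against 16.5 to 22.9%). The log2 fold change was -0.63 in level (95% interval -1.01 to -0.26, adjusted p = 1.00, edgeR) and -0.80 in the odds of the share (adjusted p = 0.968, limma). Selenok-203, the poison-exon transcript of Selk, which encodes selenoprotein K of the endoplasmic reticulum, stood at 28.8, 19.1, 26.8 and 25.8 TPM with osteopontin and 41.1, 45.6, 30.5 and 45.0 without. Neither its levels nor its shares (21.1 to 30.5% against 36.2 to 41.7%) overlapped. The log2 fold change of its level was -0.74 (95% interval -1.24 to -0.23, adjusted p = 1.00, edgeR), and the Selk gene had -0.14 (-0.39 to 0.11). Uckl1-203, of a uridine kinase-like enzyme, stood at 14.6 to 21.8 TPM with osteopontin and 24.2 to 28.1 TPM without, at a log2 fold change of -0.53 (adjusted p = 1.00, edgeR), with no overlap in level. Its shares did overlap (10.3 to 16.3% against 15.0 to 18.1%), and the Uckl1 gene as a whole had -0.26 (-0.44 to -0.09). Uckl1-203 held no stretch of 31 bases that the gene's other transcripts lack.

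The shares of Slc25a12-207 and Ddx5-208 did not overlap between the groups. The differences below are in log2 odds of the share, in level, or relative to the gene. These are unlike measures whose sizes cannot be compared directly. Slc25a12-207, of the mitochondrial aspartate/glutamate carrier, held 47.1, 49.6, 47.0 and 47.7% of its gene with osteopontin and 60.8, 81.6, 68.6 and 68.1% without. The log2 odds differed by -1.37 (95% interval -2.14 to -0.59, unadjusted p = 0.00363, adjusted p = 0.968, limma), while the level differed by -0.26 (-0.67 to 0.15) and diffSpliceDGE, which compares the transcript with its gene on counts, gave -0.14 (adjusted p = 1.00). Ddx5-208 held 39.0, 36.0, 36.9 and 38.0% with osteopontin and 50.3, 42.1, 44.7 and 42.3% without, again with no overlap, at -0.44 in log2 odds (-0.72 to -0.15, adjusted p = 0.968, limma), beside -0.23 in level (edgeR) and -0.19 by diffSpliceDGE (adjusted p = 1.00). A shorter Ddx5 transcript of the class, Ddx5-205, chosen after its values were seen, had a mean share of 14.0% with osteopontin and 7.74% without, and the Ddx5 gene as a whole differed by -0.02 (-0.13 to 0.09).

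**Figure D5:**
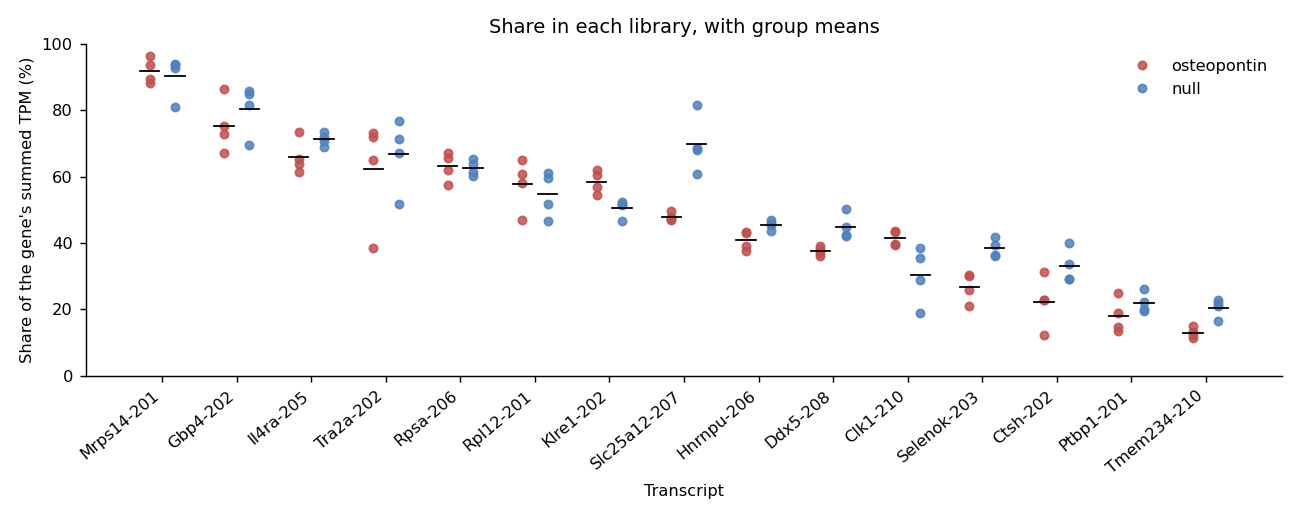
Share of the gene's summed TPM in percent for 15 transcripts in each of the 4 osteopontin and 4 null libraries (points) with group means (black lines). The shares of Slc25a12-207, Ddx5-208, Selenok-203 and Tmem234-210 are lower with osteopontin in every library than in each null one, while those of Rpsa-206, Tra2a-202 and Mrps14-201 overlap.

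On the higher side, 2 of the 5 members with the smallest p-values for level, Sp100-209 and the transcript of RP24-200D3.4, were present in every library, and the other 3 were at or near 0 in the null libraries. Sp100-209, of an interferon-induced nuclear body gene, stood at 8.78, 10.1, 12.4 and 9.61 TPM with osteopontin and 7.20, 4.19, 5.92 and 4.26 without. The groups did not overlap, the log2 fold change was 0.88 (SE 0.22, adjusted p = 1.00 by edgeR and 0.0259 by DESeq2), and the transcript was 1.04 to 2.93% of the gene. Mouse Sp100 has a repeated relative, so its read division is uncertain. RP24-200D3.4 had 20.8, 25.3, 26.1 and 25.02 TPM with osteopontin and 15.0, 17.5, 20.1 and 17.0 without, as the sole transcript of its gene. Its log2 fold change was 0.43 (adjusted p = 1.00 by edgeR and 0.0403 by DESeq2), with no overlap.

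The other 3 were Srrt-213, Tmem131-203 and Tbk1-204, and Cfap20-205 was among the smallest p-values for share. Srrt-213, of a nuclear RNA-processing factor, had 2.23, 1.57, 6.74 and 6.96 TPM with osteopontin and was listed at 0 in all 4 null libraries, at no more than 1.29% of the gene. Tmem131-203 had 0.703 to 5.02 TPM and was likewise listed at 0 in the null libraries. Cfap20-205, of a cilium-associated protein, had 1.06 to 8.12 TPM with osteopontin and 0 to 0.177 without, and Tbk1-204, of a kinase of innate immune signalling, 1.07 to 7.63 and 0 to 0.125. Srrt-213, Tmem131-203, Cfap20-205 and Tbk1-204 reached the mean of 1 TPM only through the osteopontin libraries, with null means of 0, 0, 0.0768 and 0.0312 TPM. Their difference between the groups is therefore not independent of the selection. Values listed at 0 are estimates that share most of their sequence with other transcripts of the gene: Srrt-213 has 26 and Tbk1-204 has 30 sequence words of 31 bases that no other transcript of the gene holds, about what a single junction gives, while Tmem131-203 has 211 of 652. Prmt6-202, of an arginine methyltransferase, showed how such estimates switch, with 11.1 and 12.3 TPM in null libraries 2 and A and 0.163 to 0.284 TPM in the other 6.

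In the odds of the share, respiratory chain transcripts had the largest median difference of the 8 lists, from few transcripts. Of 86 genes 11 had a member, with 13 transcripts, and the median difference in log2 odds of the share was 1.11, beside -0.02 over all tested members, with 10 of 13 fitted higher and 0 passing the test (limma, adjusted over all transcripts). Ndufa3-204, of a complex I subunit, held 34.4, 21.5, 34.3 and 37.0% with osteopontin and 23.0, 30.2, 15.8 and 1.68% without, so the groups overlapped and null library B was far below the rest. Null library B was also lowest for Atp5f1-203, of an ATP synthase subunit, at 0.392% against 9.81 to 32.1% in the other 7. Ndufs4-202, among the 3 fitted lower, held 39.1, 39.6, 22.4 and 10.1% with osteopontin and 32.3, 50.2, 26.8 and 49.9% without. Its difference was -0.91 in log2 odds, and osteopontin library B was the lowest. A second transcript of that gene, Ndufs4-204, was fitted higher at 0.82 (limma). The splicing factor transcripts had a median of -0.08 on the same scale and the ribosomal protein transcripts 0.12. In level the respiratory chain transcripts had a median log2 fold change of 0.54 (11 tested, 9 fitted higher, 0 passing), and the single decay factor transcript tested had -0.88 (edgeR).

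The spread between libraries was wider for scarce transcripts. The median member had 190 reads per library, 1584 of the 2860 were listed at 0 in at least 1 library, and 933 reached 1 TPM in all 8. At 10 TPM or more the median coefficient of variation within a group was 28.3% for members, 15.6% for protein-coding and 30.5% for retained-intron transcripts. Between 2 and 10 TPM the values were 76.1, 60.8 and 62.2%. For 280 of 560 tested members at 10 TPM or more the 95% interval of the level change lay within 2-fold, and for 475 (84.8%) within 4-fold. A larger change in the remaining members was not excluded at this spread. Of the matched members 366 had no 31-base word of their own within the gene, among them Clk1-210, Rbm39-225 and Tmem234-210, 1112 had 1 to 30 and 1349 had more. At 10 TPM or more the median coefficient of variation was 27.8% for 81 members with none, 34.8% for 201 with 1 to 30 and 26.0% for 269 with more, so the spread did not fall steadily with the amount of own sequence.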

How the data were processed

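Per the submitters' processing notes the authors quantified transcripts with Salmon (version, transcript release and build: not given in the sources used here). Per the file headers the deposited tables hold estimated counts, which need not be whole, and TPM as the authors made them. Reads that fit several transcripts are divided by the model, which adds an error that the tests see only as spread between libraries. Library totals ran from 49108969 to 71399847 estimated reads.

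The rounded estimated counts were tested per transcript and per gene with edgeR 4.0.16 (quasi-likelihood, robust, TMM, filterByExpr with a minimum count of 10, two-sided, group only). Shares were tested with limma 3.58.1 on log2 of transcript TPM plus 0.1 over the other TPM of the gene plus 0.1, for transcripts at 1 TPM or more whose gene's other transcripts also summed to 1, with the variance trend on mean log2 TPM. That trend was chosen after a trend on the log odds recovered no changed transcript in simulated data. Calls were made at 0.05 on p-values adjusted by Benjamini-Hochberg over every tested feature. DESeq2 1.42.0, limma voom and diffSpliceDGE were alternatives. On simulated counts of 43836 transcripts the level test called 58 of 98 changed 8-fold and 51 of 100 changed 4-fold. On 33485 transcripts the share test called 25 and 8 of 100 in the same order. The changed transcripts were drawn only from those at 10 TPM or more whose gene's other transcripts also summed to 10 TPM or more. Counts were drawn for each transcript separately, so no reads were divided among transcripts of a gene. The median member lay at 3.69 TPM, so these rates do not apply to most members. Outside the changed transcripts the level test called 5 and the share test 10. How many of these 10 belonged to the same genes as changed transcripts, so that their share shifted too, was not counted.

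Structures came from GENCODE M21 (GRCm38), matched on versioned identifier and length. Each transcript was compared with the most abundant complete coding transcript of its start codon at 1 TPM or more. Named are the 10 members highest in TPM, the 10 highest in share, the 5 with the smallest p per direction and test, up to 4 per gene list, those at the threshold and the 5 with the widest range of share. Selection used the mean over all libraries, and the members, the lists and this rule were chosen with earlier results of these data known. Results of some transcripts under the rule are not reported here. The lists cover splicing factors, ribosomal proteins, translation factors, respiratory chain, lymphocyte genes, decay factors, the exon junction complex and known decay substrates. Of the 14 known substrate genes 6 had a member, and the annotation gives a transcript of this biotype to only these 6. Alternatives left out single libraries, null libraries 1 and A, or both B libraries, and changed tools, filters, pseudocounts and scaling.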

Additional observations from a re-analysis of the deposited data

Results flagged for a closer look

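In 8 of 86 groups of 4 libraries checked among the named transcripts, a single library stood apart from the other 3 by more than Dixon's 95% critical value. For normally distributed values chance alone gives about 1 in 20 such groups. That rate does not hold where the other libraries are at or near 0, since a single value above 0 then passes readily. Slc25a12-207 was at 13.92 TPM in osteopontin library B against 20.39 to 21.14 in the other osteopontin libraries. In the other 7 the remaining 3 libraries were listed at or near 0. Usf2-204 stood at 5.678 TPM in null library A and Tesc-202 at 12.59 TPM in null library B, and each was listed at 0 in the other null libraries. Tbk1-204 stood at 0.1249 TPM in null library 2 and at 0 in the other 3. In the osteopontin group Lair1-208 had 1.657 TPM and Micall1-203 had 0.5423 TPM in library A, with 0 in the others. Clec16a-206 had 0.841 TPM in osteopontin library 1 against at most 0.01849, and Prmt6-202 had 0.2843 TPM in osteopontin library B against 0.1814 to 0.1984.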

How the results depend on the processing

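No followed transcript changed direction: of 577 alternative values for 17 transcripts, 566 kept direction and side of the threshold and 11 crossed it, with 9 of these under DESeq2 (level), 1 with a share pseudocount of 0.01 and 1 with diffSpliceDGE. For level, DESeq2 called 81 transcripts higher and 99 lower, among them 6 and 3 members, where edgeR called 0. Leaving out single libraries gave 0 to 2 transcripts called lower, with 2 without osteopontin library B and 2 without both B libraries, and no member.

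For share the main test called 1 transcript higher and 1 lower, neither a member. A pseudocount of 0.01 gave 9 and 13 (1 member higher, Srrt-213), a pseudocount of 1 gave 0 and 0, and diffSpliceDGE gave 5 and 4 (1 member higher). The share itself and the trend on mean log odds gave 0 higher, a filter at 0.1 TPM gave 0 lower, and the naming (digit or letter) as a covariate and leaving out both B libraries gave 0 and 0. Without null libraries 1 and A there were 2 higher. Leaving out single libraries gave 0 to 2 higher and 0 to 5 lower, and 0 to 1 members lower, the last being Adh5-207 without osteopontin library 1. The cause of these shifts was not tested. For host genes DESeq2 and edgeR without a filter each called 1 higher, in both cases RP24-200D3.4, whose sole transcript is a member. The summed difference of 1876 TPM ranged from 523 to 2631 when single libraries were left out, and the lowest value was without osteopontin library B.

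With the replicate block the share test called 0 higher and 0 lower and the level test 0 and 0. Over genes, libraries of the same name deviated together weakly (correlation of deviations 0.0437 to 0.123). Over transcripts they did not do so throughout (-0.000558 to 0.0567). The main tests did not take the names as pairs, and whether the names mark batches is not in the labels. Over genes each osteopontin library correlated best with its namesake, and null library A was the only null library that did not; over transcripts 3 of 4 osteopontin libraries did not.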

Other observations

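Some transcripts were abundant in some libraries and listed at 0 in others. Magohb-202, from a core gene of the exon junction complex, had 14.8 TPM in osteopontin library 2 and 14.5 TPM in osteopontin library B, which was 72.8% and 63.9% of the gene, and was listed at 0 in the other 6. Adh5-207, from the gene of an alcohol dehydrogenase that handles formaldehyde, had 17.6, 8.44, 9.21 and 28.9 TPM in null libraries 1, 2, A and B, 7.49 TPM in osteopontin library 1 and 0 in the other 3 osteopontin libraries; Adh5 was chosen after its values were seen. Plcxd1-202 ranged from 0.00214 to 100% of its gene over the 8 libraries. Members in genes without a complete coding transcript at 1 TPM or more, 92 in number, had a median share of 47.7%.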
